A study of Mus musculus with 8 samples.

Results

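The Wnt pathway was examined gene by gene in neonatal mouse hearts at postnatal day 1 (P1) and postnatal day 7 (P7). The genes were chosen by symbol. They were those whose symbols begin with Wnt, Fzd, Sfrp or Dkk followed by a digit, together with Ctnnb1, Axin1, Axin2, Apc, Lef1, Tcf7, Tcf7l1, Tcf7l2, Lrp5, Lrp6, Frzb and Wif1. This gave 49 genes out of 34422 symbols, namely 19 ligands, 10 Frizzled receptors, 2 Lrp co-receptors, 6 antagonists that bind the ligand, 4 Dickkopf genes, 4 genes of beta-catenin and its destruction complex and 4 TCF/LEF factors. Wnt2b was the 1 gene listed at more than 1 locus, and its most abundant locus was taken. Of the 49 genes, 29 reached an FPKM of 1 in at least 1 heart and 21 did so in every heart. FPKM are the fragments of a locus divided by its length and by the fragments mapped in the library, so they compare levels between genes per length.

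The samples were whole hearts of 4 male P1 mice and 4 male P7 mice of the stock Hsd:ICR(CD-1), each animal giving 1 library. The labels name no allele and no treatment in either group, and the atrial appendages had been cut away from every heart. Total RNA was depleted of ribosomal RNA before sequencing. A whole heart mixes muscle with fibroblasts, endothelium, epicardium, mural cells and leukocytes, and the labels give no batch or day of processing.

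The files give no counts, but low FPKM values fall on steps worth 1 fragment each. From these, an FPKM of 1 on a locus of 1 kilobase was worth an estimated 13.3 to 20.8 fragments in a heart. Loci with an FPKM of at least 1 numbered 20269 to 28662 per heart, with the highest number in P1 replicate 3. Stages were compared with limma on log2(FPKM + 1), and a differentially expressed gene (DEG, here also called) had to pass an adjusted p of 0.05 and differ at least 1.5-fold in mean FPKM. Of 17960 annotated loci tested, 7.74% (1390) were called higher in P7 and 0.401% (72) lower. This split depended on the scaling, since after median-ratio scaling 1388 (7.76%) were higher and 621 lower, and the median log2 fold change (log2FC) of annotated loci moved by -0.19. Genes of heart muscle were abundant in every heart, with Myh6 at 2533 to 5502 FPKM.

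Wnt proteins are secreted, lipid-modified ligands that bind Frizzled receptors on the receiving cell. With Lrp5 or Lrp6 as co-receptor they halt a cytoplasmic complex of Axin, Apc and kinases that otherwise marks beta-catenin for destruction. Spared beta-catenin enters the nucleus and joins TCF/LEF factors on target genes, among them Axin2, which feeds back on the pathway. Other ligands, with Wnt5a, Wnt5b and Wnt11 as textbook cases, act largely without beta-catenin, through Ror, Ryk and the planar polarity genes. Secreted Sfrp proteins, Frzb and Wif1 bind the ligands, while Dickkopf proteins act on the Lrp co-receptors. In the heart the pathway is known from the patterning of the cardiac field, the valves and the outflow tract and from the growth and scarring of the myocardium.

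The sequence ahead of the transcription start is shown for 3 genes, Sfrp2 and Wnt5b because they were called and Axin2 because it is the textbook target of beta-catenin. Each run is the 250 bases before a start in RefSeq (GRCm38.p6), read 5′ to 3′ on the strand of the gene. Capitals mark a motif on either strand. The letters searched were CTTTGAT for the core bound by TCF/LEF factors, GGGCGG for a GC box, CCAAT for the box of that name and TATAAA for a TATA box, each with its reverse complement, and none of them contains another. Wnt5b has 3 windows in RefSeq, of which those farthest upstream and farthest downstream are shown.
Sfrp2, chr3:83766071-83766320, plus strand: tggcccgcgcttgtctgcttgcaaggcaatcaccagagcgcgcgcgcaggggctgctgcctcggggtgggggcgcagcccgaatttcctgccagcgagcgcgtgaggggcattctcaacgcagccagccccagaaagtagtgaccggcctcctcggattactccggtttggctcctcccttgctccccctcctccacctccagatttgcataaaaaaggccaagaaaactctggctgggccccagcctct
Wnt5b, upstream start, chr6:119544348-119544597, minus strand: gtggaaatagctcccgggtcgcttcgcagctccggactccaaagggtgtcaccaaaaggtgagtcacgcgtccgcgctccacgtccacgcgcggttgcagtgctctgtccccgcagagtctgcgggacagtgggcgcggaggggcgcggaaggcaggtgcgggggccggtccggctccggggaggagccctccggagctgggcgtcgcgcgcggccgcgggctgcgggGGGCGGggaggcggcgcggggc
Wnt5b, downstream start, chr6:119449387-119449636, minus strand: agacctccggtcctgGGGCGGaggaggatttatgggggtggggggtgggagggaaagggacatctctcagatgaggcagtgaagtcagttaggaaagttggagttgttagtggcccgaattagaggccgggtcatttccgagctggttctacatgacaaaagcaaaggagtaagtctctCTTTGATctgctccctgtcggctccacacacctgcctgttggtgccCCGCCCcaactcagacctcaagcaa
Axin2, chr11:108920099-108920348, plus strand: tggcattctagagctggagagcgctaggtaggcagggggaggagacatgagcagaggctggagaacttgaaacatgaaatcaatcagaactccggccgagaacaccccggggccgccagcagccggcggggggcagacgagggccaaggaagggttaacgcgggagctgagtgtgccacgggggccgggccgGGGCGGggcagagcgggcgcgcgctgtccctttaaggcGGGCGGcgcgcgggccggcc
The Sfrp2 window held none of the 4 motifs. The upstream Wnt5b window held 1 GC box, and the Axin2 window held 2 GC boxes and no TCF/LEF core. The downstream Wnt5b window held a TCF/LEF core beside 2 GC boxes. Of the 49 genes, 33 had an entry in the table, with 42 windows between them, and windows of 1 gene are not independent. The TCF/LEF core stood in 2 of the 42 windows (4.76%), 1 of Wnt5b and 1 of Wnt11, and in 3.21% of all 32851 windows. The GC box stood in 76.2% of the 42 windows and 32.7% of all, the CCAAT box in 26.2% and 33.8%, and the TATA box in 21.4% and 12.4%. Median GC content was 67.4% in the 42 windows and 52.4% in all windows. These matches describe the letters in the windows and are not binding sites.

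Of the 29 genes tested, 4 were DEGs, and each was higher in P7. They were the antagonist Sfrp2, the ligand Wnt5b and the receptors Fzd8 and Fzd2. They are 13.8% of the genes tested, beside 7.74% of annotated loci called higher. No gene was called lower by limma, where 0 had an unadjusted p under 0.05 in that direction and 16 had one in the other direction. This split depended on the scaling, with 9 higher and 4 lower at an unadjusted p under 0.05 after median-ratio scaling and 11 higher and 2 lower after quantile normalization, and the same 4 genes called in both. In the fit reported, 29.7% of annotated loci tested had an unadjusted p under 0.05 by limma, both directions together. That share stands beside every such count from this fit below. For the other fits the share over annotated loci was not worked out, so their counts at an unadjusted p are descriptions. In 11 of the 29 (37.9%) every P7 heart lay above every P1 heart, as in 17.3% of annotated loci tested, and in 0 of the 29 did every P7 heart lie below, as in 2.69%. The median log2FC was 0.45 over these 29 genes and 0.19 over annotated loci tested. After median-ratio scaling these medians were 0.26 and 0.0021, and after quantile normalization 0.19 and 0.083. A gene with a low level passes the filter on FPKM through the stage where it is higher, so these counts describe the genes that passed and are no support for a direction. In bulk samples fewer cells of a type and less RNA per cell cannot be told apart.

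**Figure D1:**
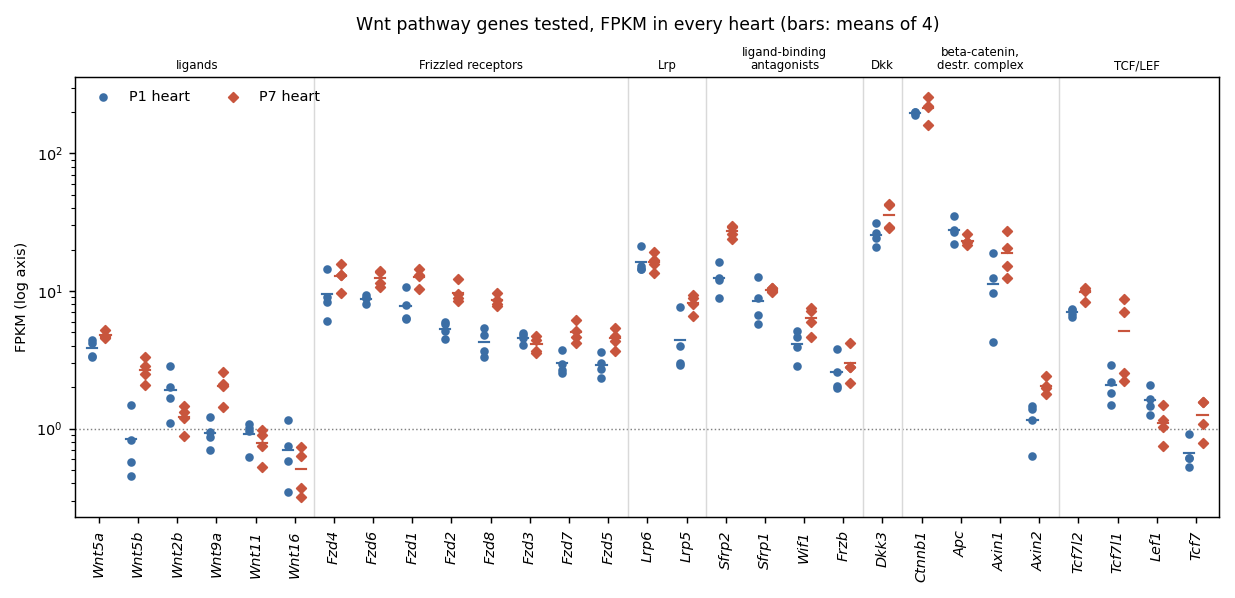
FPKM (log axis) of the 29 Wnt pathway genes tested, ordered by role, with circles for P1 hearts, diamonds for P7 hearts, bars at the means of 4 and a dotted line at FPKM 1. The ligands lie at or below 5.20 FPKM, the Frizzled receptors between 2.34 and 15.6 FPKM, and Ctnnb1 highest at both stages.

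**Figure D2:**
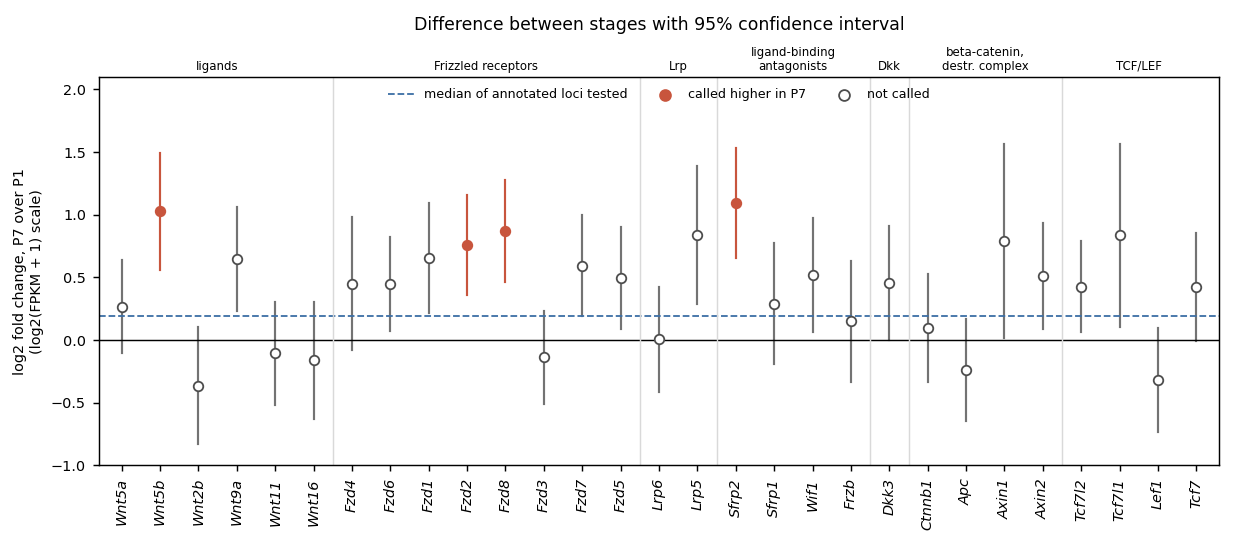
Log2FC of P7 over P1 on the log2(FPKM + 1) scale with 95% confidence intervals from limma for the 29 genes tested (n = 4 hearts a stage), filled where called, with the median of annotated loci dashed. Sfrp2 (1.09) and Wnt5b (1.03) lie highest and Wnt2b (-0.36) lowest.

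Among the ligands, 6 of 19 reached FPKM 1, and Wnt5b was the ligand called. Wnt5b, a close relative of Wnt5a, lies at chr6:119432531-119544347 on the minus strand (GRCm38, GENCODE M21). It measured 0.827, 0.573, 0.453 and 1.49 FPKM in P1 replicates 1 to 4 and 2.51, 2.06, 2.88 and 3.31 FPKM in P7 replicates 1 to 4. The lowest P7 heart stood above the highest P1 heart, P1 replicate 4. Mean FPKM rose from 0.837 ± 0.465 to 2.69 ± 0.529 (SD, n = 4), a ratio of 3.21. The log2FC was 1.03 with an SE of 0.22, a 95% interval of 0.56 to 1.49 and a limma adjusted p of 0.0246, and the pseudocount makes it smaller than the ratio. These levels rest on an estimated 17.7 to 129 fragments per heart. Fbxl14, an F-box gene in the same assembled span, also had every P7 heart (10.1 to 13.7 FPKM) above every P1 heart (5.96 to 7.96 FPKM), while no annotated exon of another gene overlaps a Wnt5b exon.

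Wnt5a, which signals largely through Ror receptors, was the most abundant ligand when each gene was taken at 1 locus. The 4 loci of Wnt2b together had a higher mean in P1 (4.74 FPKM, against 3.83 for Wnt5a). In P7 they did not (3.71 against 4.78 FPKM). Wnt5a measured 4.21, 3.39, 3.33 and 4.37 FPKM in P1 and 4.58, 4.61, 5.20 and 4.74 FPKM in P7. The groups did not overlap but lay close, and the difference was not called (log2FC 0.27, 95% interval -0.10 to 0.64, limma adjusted p = 0.406). Within a heart, Wnt5b reached 0.136 to 0.342 times the FPKM of Wnt5a in P1 and 0.447 to 0.697 times in P7. The longest transcript had 60.0% GC in Wnt5b and 46.7% in Wnt5a. The summed FPKM of the 19 ligands took Wnt2b at its highest locus alone. As a percentage of that sum, Wnt5a held 34.0 to 38.0 in P1 and 32.8 to 39.4 in P7. Wnt5b held 4.88 to 11.6 percent of that sum in P1 and 17.6 to 24.4 percent in P7, with no overlap.

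Wnt9a, a ligand known from joints and heart valves, measured 1.22, 0.876, 0.702 and 0.939 FPKM in P1 and 2.56, 2.05, 2.1 and 1.44 FPKM in P7. Its groups did not overlap, and its log2FC of 0.65 (SE 0.19) missed the threshold (limma adjusted p = 0.0853). Wnt2b, a ligand of the beta-catenin branch, had the lowest log2FC of the 29 genes (-0.36). It measured 2.01, 1.09, 1.67 and 2.83 FPKM in P1 and 1.19, 0.881, 1.45 and 1.33 FPKM in P7, so that P1 replicate 2 lay among the P7 hearts (limma adjusted p = 0.375). The files split Wnt2b over 4 loci, which summed to 3.20 to 7.44 FPKM in P1 and 3.19 to 4.11 FPKM in P7. Wnt2b, at its highest locus, made up 12.3 to 22 percent of the summed ligands in P1 and 7.53 to 9.87 percent in P7.

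Wnt11, a ligand of the early heart field and outflow tract, measured 0.622 to 1.08 FPKM in P1 and 0.528 to 0.971 FPKM in P7 (log2FC -0.10, limma adjusted p = 0.749). Wnt16 measured 0.344 to 1.15 FPKM in P1 and 0.317 to 0.732 FPKM in P7 (log2FC -0.16, limma adjusted p = 0.660). Neither was called, and quantile normalization turned the sign of both. The other 13 ligands, Wnt1, Wnt2, Wnt3, Wnt3a, Wnt4, Wnt6, Wnt7a, Wnt7b, Wnt8a, Wnt8b, Wnt9b, Wnt10a and Wnt10b, stayed under FPKM 1 in every heart and were not tested. The highest of them in any heart was Wnt2 at 0.531 FPKM. Wnt1 was listed at 0 in the 4 P7 hearts and at 0.0197 to 0.0313 FPKM in P1, and Wnt7a was at 0.0624 to 0.0920 FPKM in P1 and at most 0.0254 FPKM in P7. These are the 2 genes of the 49 in which every P7 heart lay below every P1 heart, as in 2.73% of all annotated loci, and both lie far under the filter.

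Of the 10 Frizzled receptors, 8 reached FPKM 1, 2 were called and both rose. In 5 of the 8 every P7 heart lay above every P1 heart. Of annotated loci tested, 7.74% were called higher and 17.3% had every P7 heart above. The summed FPKM of the family was 46.9 ± 8.82 in P1 and 70.6 ± 7.71 in P7 (SD, n = 4), and the lowest P7 heart (63.2) stood above the highest P1 heart (58.9). Divided by the same heart's summed ligands (Wnt2b at its highest locus), this was 4.19 to 4.66 at P1 and 4.89 to 5.49 at P7.

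Fzd8, a receptor for ligands of the beta-catenin branch, lies on chromosome 18 and has 1 exon. It measured 4.77, 3.64, 3.33 and 5.36 FPKM in P1 and 8.63, 7.77, 9.64 and 8.10 FPKM in P7. Every P7 heart stood clear of every P1 heart. Means were 4.27 ± 0.953 and 8.54 ± 0.817 FPKM (SD, n = 4), a ratio of 2.00. The log2FC was 0.87 with an SE of 0.19, a 95% interval of 0.46 to 1.27 and a limma adjusted p of 0.0276. Its percentage of the Frizzled sum was 8.48 to 9.94 at P1 and 11.9 to 12.3 at P7. Fzd5, its closest relative, measured 2.34 to 3.61 FPKM in P1 and 3.64 to 5.43 FPKM in P7 without overlap and was not called (log2FC 0.50, limma adjusted p = 0.178).

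Fzd2, a receptor of Wnt5a among other ligands, lies at chr11:102604396-102608058 on the plus strand and also has 1 exon. It measured 5.96, 4.45, 5.15 and 5.74 FPKM in P1 and 9.5, 8.88, 12.2 and 8.44 FPKM in P7. The groups were apart, with P7 replicate 3 highest. Means were 5.32 ± 0.679 and 9.75 ± 1.67 FPKM (SD, n = 4), a ratio of 1.83. The log2FC was 0.76 with an SE of 0.18, a 95% interval of 0.36 to 1.16 and a limma adjusted p of 0.040. Its near relatives Fzd1 and Fzd7 were not called. Fzd7 measured 2.55 to 3.74 FPKM in P1 and 4.18 to 6.12 FPKM in P7 with no overlap (log2FC 0.59, limma adjusted p = 0.105). Fzd1 measured 7.90, 6.28, 6.39 and 10.6 FPKM in P1 and 10.4, 12.8, 14.3 and 13.2 FPKM in P7 (log2FC 0.65, limma adjusted p = 0.101). P1 replicate 4 was the P1 heart that reached into the P7 range of Fzd1.

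The most abundant receptors at P7 were Fzd4, a receptor of blood vessels, Fzd1 and Fzd6, known from planar polarity, with means of 12.9 ± 2.43, 12.7 ± 1.66 and 12.4 ± 1.60 FPKM (SD, n = 4). These neighbours did not differ beyond their spread. Fzd6 had no overlap between stages, at 8.06 to 9.39 FPKM in P1 and 10.7 to 13.9 FPKM in P7 (log2FC 0.45, limma adjusted p = 0.188). Fzd4 overlapped, at 6.01 to 14.5 FPKM in P1 and 9.71 to 15.6 FPKM in P7 (log2FC 0.45, limma adjusted p = 0.343). Fzd3, an axon guidance receptor, had the 1 negative difference of the family (log2FC -0.14, limma adjusted p = 0.636), whose sign turned after GC correction (0.13). It measured 4.08 to 4.94 FPKM in P1 and 3.57 to 4.73 FPKM in P7, and its percentage of the Frizzled sum was 8.38 to 11.6 at P1 and 5.37 to 6.56 at P7. Fzd9 and Fzd10 stayed under FPKM 1, with at most 0.781 and 0.323 FPKM.

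The co-receptors Lrp5 and Lrp6 were not called. Lrp6 measured 14.5, 15.1, 14.5 and 21.4 FPKM in P1 and 19.1, 13.5, 16.9 and 15.8 FPKM in P7 (log2FC 0.007, 95% interval -0.41 to 0.43, limma adjusted p = 0.985). The sign of this difference turned under median-ratio scaling (-0.22). Lrp5 measured 4.00, 2.92, 2.98 and 7.68 FPKM in P1 and 8.85, 6.54, 9.42 and 8.0 FPKM in P7 (log2FC 0.84, SE 0.25, limma adjusted p = 0.0932). P1 replicate 4 was the P1 heart within the P7 range of Lrp5 and was the highest heart for Lrp6. Of the 8 fits that left out 1 heart, Lrp5 was called in 1, the fit without P1 replicate 4 (log2FC 1.10, limma adjusted p = 0.00786), where annotated loci called higher also went from 1390 to 2720. Within a heart, the ratio of Lrp5 to Lrp6 FPKM was 0.193 to 0.360 at P1 and 0.463 to 0.556 at P7, with no overlap, and the longest transcript had 54.7% GC in Lrp5 and 46.0% in Lrp6.

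Among the antagonists that bind the ligand, Sfrp2 rose and had the lowest adjusted p of the 29 genes. Sfrp2, a secreted protein with a Frizzled-like domain, lies at chr3:83766321-83774316 on the plus strand and has 3 exons. It measured 12.0, 8.86, 12.5 and 16.3 FPKM in P1 and 26.1, 23.9, 29.6 and 29.0 FPKM in P7. The stages were well apart. Means were 12.4 ± 3.07 and 27.2 ± 2.65 FPKM (SD, n = 4), a ratio of 2.19. The log2FC was 1.09 with an SE of 0.20, a 95% interval of 0.66 to 1.53 and a limma adjusted p of 0.0169, on an estimated 246 to 957 fragments per heart. Its percentage of the summed FPKM of this group was 39.8 to 53.1 at P1 and 54.3 to 61.8 at P7.

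An antisense gene, Gm26771, overlaps exonic bases of Sfrp2 in GENCODE M21, and the files list a locus AC141473.1 in the same assembled span. That locus measured 8.11 to 10.6 FPKM in P1 and 8.98 to 18.9 FPKM in P7. Whether the counting used strand is not given in the sources used here. It is therefore not known whether reads from Sfrp2 and its antisense partner were kept apart. Antisense genes also overlap exons of Ctnnb1, Fzd5, Fzd6, Wnt5a, Wnt11, Tcf7l1, Lef1 and Axin2, and no annotated exon overlaps those of Fzd2 and Fzd8.

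Sfrp1, a close relative, measured 8.86, 6.66, 5.75 and 12.7 FPKM in P1 and 10.5, 9.82, 10.4 and 9.92 FPKM in P7 (log2FC 0.29, 95% interval -0.19 to 0.77, limma adjusted p = 0.466). The P7 values sat inside the P1 range, and the ratio of Sfrp2 to Sfrp1 FPKM was 1.29 to 2.17 at P1 and 2.43 to 2.92 at P7. Wif1, which binds ligands through a domain of its own, measured 2.87 to 5.09 FPKM in P1 and 4.63 to 7.58 FPKM in P7 (limma adjusted p = 0.210). Frzb, a relative of the Sfrp genes, measured 1.96 to 3.81 FPKM in P1 and 2.13 to 4.18 FPKM in P7 (limma adjusted p = 0.691), and its sign turned under median-ratio scaling. Sfrp4 and Sfrp5 stayed under FPKM 1. The summed FPKM of the group was 27.9 ± 7.26 in P1 and 47.4 ± 2.73 in P7 (SD, n = 4).

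Dkk3, a divergent Dickkopf gene without a settled part in Wnt signalling, made up at least 98.0% of the summed Dickkopf FPKM in every heart. It measured 26.2, 24.1, 20.9 and 30.9 FPKM in P1 and 43.1, 28.5, 42.2 and 29.1 FPKM in P7 (log2FC 0.45, limma adjusted p = 0.268). P7 replicates 1 and 3 lay above every P1 heart, and P7 replicates 2 and 4 within the P1 range. Dkk1, the textbook blocker of Lrp6, stayed at or below 0.122 FPKM and Dkk2 at or below 0.373 FPKM, and Dkk4 was listed at 0 in every P7 heart.

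None of the 4 genes of beta-catenin and its destruction complex was called by limma, while 2 were higher and 0 lower at an unadjusted p under 0.05. Ctnnb1 encodes beta-catenin, which also serves cell junctions, and was the most abundant of the 49 genes. It measured 198, 197, 199.8 and 191 FPKM in P1 and 217, 160.5, 257 and 219 FPKM in P7. The P7 range enclosed the P1 range (log2FC 0.099, 95% interval -0.33 to 0.53, limma adjusted p = 0.772), and the sign turned under median-ratio scaling (-0.14). Apc, a scaffold of the complex, measured 21.8 to 35.2 FPKM in P1 and 21.6 to 25.9 FPKM in P7 (log2FC -0.24, limma adjusted p = 0.475). Axin1, the scaffold that is usually limiting, measured 12.4, 4.28, 9.63 and 18.9 FPKM in P1 and 12.5, 15.3, 20.6 and 27.2 FPKM in P7 (log2FC 0.79, SE 0.36, limma adjusted p = 0.262). In proportion to the mean, its hearts spread more widely within a stage than those of the other 3 genes.

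Axin2 is both part of the complex and a target of the pathway. It measured 1.46, 0.634, 1.16 and 1.40 FPKM in P1 and 2.04, 2.43, 1.96 and 1.77 FPKM in P7. The groups did not overlap, with P1 replicate 2 lowest, but the log2FC of 0.51 (SE 0.19, 95% interval 0.089 to 0.93) was not called (limma adjusted p = 0.184). Its levels rest on an estimated 37.5 to 173 fragments per heart. The ratio of Axin2 to Axin1 FPKM overlapped between stages, at 0.0738 to 0.148 in P1 and 0.0650 to 0.163 in P7.

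None of the 4 TCF/LEF factors was called by limma, while 2 were higher and 0 lower at an unadjusted p under 0.05. Tcf7l2 was the most abundant of them and did not overlap between stages, at 7.41, 7.31, 6.45 and 6.84 FPKM in P1 and 10.1, 10.5, 10.2 and 8.37 FPKM in P7 (log2FC 0.43, limma adjusted p = 0.198). Tcf7l1, mostly a repressor, measured 2.89, 2.17, 1.82 and 1.49 FPKM in P1 and 7.04, 8.71, 2.22 and 2.52 FPKM in P7 (log2FC 0.84, SE 0.34, limma adjusted p = 0.208). P7 replicates 1 and 2 stood above every other heart, and P7 replicates 3 and 4 lay within the P1 range. Lef1 measured 1.65, 1.26, 2.06 and 1.47 FPKM in P1 and 1.48, 0.744, 1.15 and 1.02 FPKM in P7 (log2FC -0.32, limma adjusted p = 0.383). Tcf7 measured 0.524 to 0.911 FPKM in P1 and 0.792 to 1.57 FPKM in P7 (log2FC 0.42, limma adjusted p = 0.276). The hearts of both stages overlapped for Lef1, Tcf7 and Tcf7l1, while the ratios of Tcf7 and Tcf7l2 to Lef1 did not overlap. How many gene pairs over all loci have ratios without overlap was not worked out, so these and the other ratios are descriptions. Within a heart, the ratio of Tcf7 to Lef1 FPKM was 0.317 to 0.486 at P1 and 0.774 to 1.45 at P7, and that of Tcf7l2 to Lef1 was 3.13 to 5.78 and 6.81 to 14.1. Tcf7 passed the filter on FPKM through P7 hearts alone, on an estimated 20.2 to 58.7 fragments per heart, so its ratio is a description. The longest transcript had 52.3% GC in Tcf7, 47.3% in Tcf7l2 and 46.1% in Lef1.

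Tcf7 and Lef1 are also expressed by thymocytes, and the thymus lies close to the heart. Of 10 thymus markers, Ptcra was listed at 0 in every heart, and Cd3e, Cd4, Cd8a, Rag2, Themis and Dntt stayed under FPKM 1. Cd3g was highest in P1 replicate 3 (2.78 FPKM), the heart where Lef1 was also highest, and Lck in P7 replicate 1 (1.48 FPKM). Rag1 shares a locus with another gene, so its level is not given. The 9 markers other than Rag1 summed to 1.32 to 4.70 FPKM in P1 and 1.96 to 4.58 FPKM in P7, and their part in the Tcf7 and Lef1 values was not tested.

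The other genes of the pathway were counted from 6 lists. Of 92 genes outside the 49, 83 were tested, 14 were called higher and 1 lower, beside 7.74% and 0.401% of annotated loci, and the median log2FC was 0.36. Without P1 replicate 2 or P7 replicate 3, 0 of the 83 were called higher by limma (32 and 34 at an unadjusted p under 0.05), and without P1 replicate 4, 28 were. Among the 4 genes of secretion and release none was called by limma, and 1 was higher and 0 lower at an unadjusted p under 0.05. Wls, which carries Wnt proteins to the cell surface, was the most abundant of them at 38.9 to 58.0 FPKM in P1 and 30.7 to 45.1 FPKM in P7. Porcn, which attaches their lipid, measured 1.23 to 2.20 FPKM in P1 and 1.83 to 3.73 FPKM in P7.

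Of 25 co-receptors and modulators at the surface, 18 were tested, 1 rose and 1 fell, beside 7.74% and 0.401% of annotated loci. Sdc1, a heparan sulfate proteoglycan, measured 8.06, 5.12, 5.21 and 9.0 FPKM in P1 and 15.7, 12.6, 19.9 and 16.2 FPKM in P7, and rose (log2FC 1.14, limma adjusted p = 0.0197). The glypican Gpc3, another proteoglycan and a restraint on growth, measured 43.0, 40.6, 42.6 and 53.3 FPKM in P1 and 26.2, 25.7, 25.3 and 27.3 FPKM in P7, and fell (log2FC -0.75, limma adjusted p = 0.0334). The P7 hearts of Gpc3 lay close together and below every P1 heart. Of the uncalled genes, Lgr4, a receptor of R-spondins, and Ryk, a receptor of Wnt5a, had the highest means over the 8 hearts, with log2FC of -0.24 and 0.0057, while at P7 alone Gpc6 (28.9 FPKM) and Kremen1 (23.3 FPKM) lay above both (23.0 and 23.1 FPKM).

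Of 23 cytoplasmic transducers, 5 rose, beside 7.74% of annotated loci called higher. None fell by limma, where 0 had an unadjusted p under 0.05 in that direction. After GC correction alone, none of the 5 was called. Dvl1 and Dvl2 are Dishevelled scaffolds that relay the signal from Frizzled. Dvl1 measured 5.78, 4.69, 3.11 and 8.08 FPKM in P1 and 12.8, 13.1, 16.5 and 12.2 FPKM in P7 (log2FC 1.24, limma adjusted p = 0.0190). Dvl2, in a locus joined with a microRNA, had a log2FC of 1.2 (limma adjusted p = 0.0316). The hearts of both were apart, with P1 replicate 3 lowest. Gsk3a, a kinase of the destruction complex, measured 13.4 to 18.2 FPKM in P1 and 24.4 to 32.6 FPKM in P7 (log2FC 0.79, limma adjusted p = 0.0348). The other genes called were Csnk1g2, a casein kinase that acts on Lrp6 (log2FC 1.26), and Ppp2r5b, a phosphatase subunit (log2FC 0.78). Csnk1a1, the casein kinase of the destruction complex, was the most abundant uncalled gene at 143 to 308 FPKM in P1 and 163 to 283 FPKM in P7.

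Of 18 nuclear partners, 7 rose, beside 7.74% of annotated loci called higher. None fell by limma, where 0 had an unadjusted p under 0.05 in that direction. After GC correction alone, none of the 7 was called. Tle1, Tle2 and Tle3 are corepressors that sit on TCF/LEF factors, and their log2FC were 0.65, 1.08 and 1.32 (limma adjusted p = 0.0468, 0.0287 and 0.0225). Tle3 measured 7.22, 7.20, 3.39 and 11.4 FPKM in P1 and 16.4, 19.1, 19.9 and 18.4 FPKM in P7, with P1 replicate 3 lowest and no overlap. Ctnnbip1, which blocks the binding of beta-catenin to TCF factors, measured 18.7, 21.7, 18.9 and 16 FPKM in P1 and 34.1, 35.8, 56.5 and 36.9 FPKM in P7 (log2FC 1.05, limma adjusted p = 0.0199). The others were Ctbp1, also a corepressor (log2FC 0.98), and Sox17 (0.86) and Sox7 (0.74), endothelial factors that can bind beta-catenin.

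Of 15 planar polarity genes, Celsr3, a large cadherin, was the gene called, beside 7.74% of annotated loci called higher. It measured 0.588, 0.487, 0.351 and 0.668 FPKM in P1 and 2.27, 1.54, 1.94 and 1.74 FPKM in P7 (log2FC 0.91, limma adjusted p = 0.0215). Celsr3 passed the filter on FPKM through the P7 hearts alone, so that it had to differ to be tested, and its call is a description. The GTPases Rhoa and Rac1 were the most abundant and were not called (log2FC 0.28 and 0.34). Of 18 known transcriptional targets, 4 of them among the 49 genes, 13 were tested and none was called by limma, while 4 were higher and 0 lower at an unadjusted p under 0.05. Ccnd1, a cyclin and the most abundant target, measured 13.3 to 23.1 FPKM in P1 and 11.5 to 31.2 FPKM in P7, so that its P1 range lay inside its P7 range. The 5 targets not tested were Notum, Sp5, Lgr5, Rnf43 and Dkk1, which stayed under FPKM 1 in every heart.

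**Figure D3:**
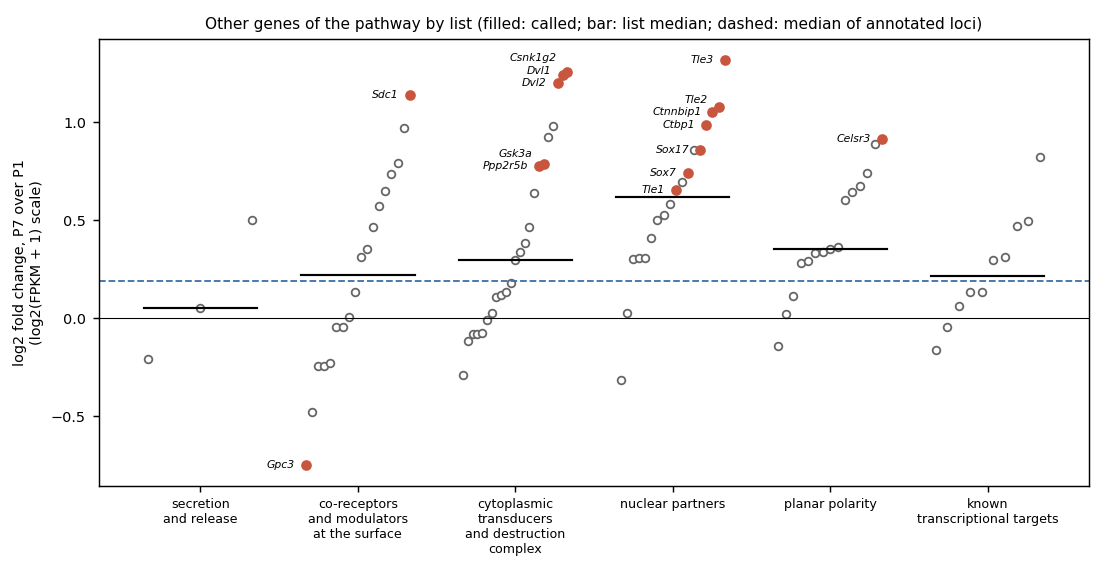
Log2FC of P7 over P1 (log2(FPKM + 1) scale) of the tested pathway genes outside the 49, by list, with 1 point per gene, filled and named where called, bars at list medians and the median of annotated loci dashed. The 7 called nuclear partners lie between 0.65 and 1.32, and Gpc3 at -0.75 is the called gene below 0.

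The GC content of the transcripts, which the choice of genes did not use, ran with the differences. For the longest GENCODE M21 transcript it was 51.7% to 60.0% in the 4 genes called, with a median of 50.8% in the other 25. In annotated loci the median was 56.2% for those called higher and 48.6% for those not called. Across the 29 genes, GC content and log2FC had a Pearson r of 0.60 and a Spearman rho of 0.63, and across 15289 annotated loci 0.48 and 0.53. Genes share the 8 libraries and are not independent replicates, so these are descriptions. After each heart's trend with GC content was removed, 2.08% of annotated loci were called higher, and Sfrp2 was the 1 gene of the 49 called (log2FC 0.93, limma adjusted p = 0.0425). Wnt5b then had a log2FC of 0.56 (limma adjusted p = 0.232), Fzd8 of 0.78 (0.0583) and Fzd2 of 0.40 (0.281). None of the 83 other pathway genes was then called by limma, where 26 were higher and 3 lower at an unadjusted p under 0.05. The part of GC content in these differences was not otherwise tested.

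**Figure D4:**
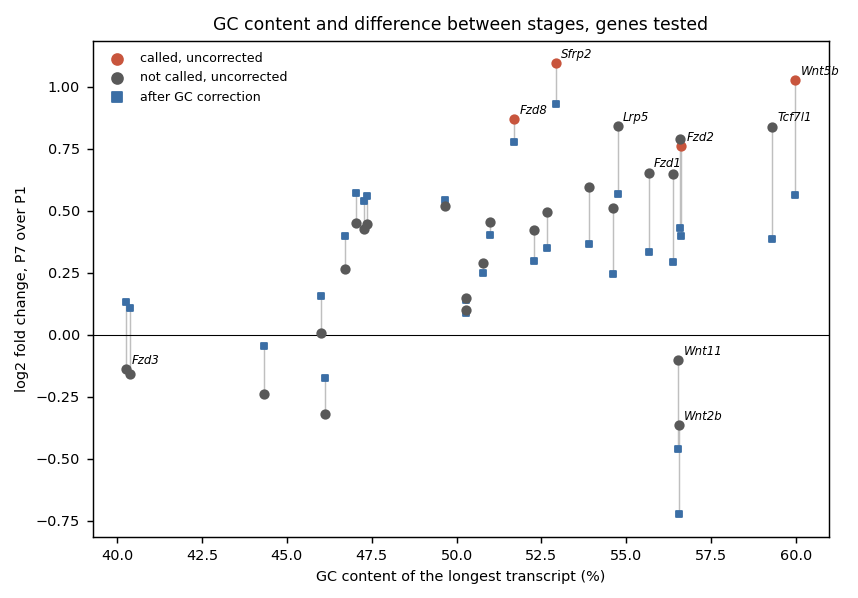
Log2FC of P7 over P1 against transcript GC content (%, longest transcript) for the 29 genes tested, with circles for the uncorrected values joined by lines to squares after GC correction. Wnt5b at 60.0% GC goes from 1.03 to 0.56, Sfrp2 at 52.9% from 1.09 to 0.93, and Fzd3 at 40.3% from -0.14 to 0.13.

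Some markers of other cell types were called beside these genes and others were not. Over all annotated loci tested, 7.74% were called higher and 0.401% lower. Of 6 fibroblast markers 3 were called, each higher in P7, namely Col1a1 (log2FC 0.94), Dcn (1.18) and Tcf21 (1.00). The 6 together summed to 664 to 1277 FPKM in P1 and 1166 to 1482 FPKM in P7, and Col1a2, Pdgfra and Postn were not called. Of 5 endothelial markers Cdh5 was called (log2FC 0.96), and their sum ran from 86.0 to 142 FPKM in P1 and 108 to 169.8 FPKM in P7. Emcn, not called, lay lower in every P7 heart (log2FC -0.43, limma adjusted p = 0.244), and the log2FC of Tek was 0.032. Of 6 epicardial markers Aldh1a2 was called (log2FC 1.34), with sums of 31.1 to 51.9 and 49.5 to 73.8 FPKM, and Wt1, Tbx18, Upk3b, Upk1b and Msln were not. Of 4 mural cell markers Pdgfrb was called (1.2). Acta2, not called, lay lower in every P7 heart (90.7 to 199 FPKM, P1 214 to 455 FPKM, log2FC -0.90, limma adjusted p = 0.126). Rgs5 (log2FC 0.87) and Myh11 (0.48) were not called either. The mural sum was 266 to 552 FPKM at P1 and 214 to 328 FPKM at P7. Of 4 leukocyte markers Lyz2 was called (log2FC 1.22), and their sum was 15.4 to 21.2 FPKM in P1 and 34.0 to 46.5 FPKM in P7. Of 2 brown fat markers Cidea was called (log2FC 0.88). The other, Ucp1, measured at most 0.147 FPKM in P1 and 0, 3.08, 0.0413 and 10.3 FPKM in P7 replicates 1 to 4. Of 6 red cell markers tested none was called by limma, while 5 were higher and 0 lower at an unadjusted p under 0.05. The part of these cells in the levels of Sfrp2, Wnt5b, Fzd8 and Fzd2 was not tested. None of 5 muscle markers was called by limma, while 2 were higher and 0 lower at an unadjusted p under 0.05.

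The calls among the 49 genes rested on few hearts. Without P1 replicate 1, P1 replicate 3 or P7 replicate 4, Sfrp2 was the 1 gene called, and without P7 replicate 2, Sfrp2, Fzd8 and Wnt5b were called. When any of P1 replicate 2, P7 replicate 1 and P7 replicate 3 was left out, 0 were called by limma. In these fits 11, 10 and 12 genes were higher at an unadjusted p under 0.05, with no share over annotated loci at hand. The limma adjusted p of Sfrp2 was then 0.0705, 0.0504 and 0.0536. Without P1 replicate 4, 7 were called, the 4 and also Fzd1, Lrp5 and Fzd7. The same 7 were called with weights on sample quality, where P1 replicate 4 had the lowest weight (0.404) and 15.4% of annotated loci were called higher. Fzd1, Lrp5 and Fzd7 were also called with all hearts when FPKM 1 was required in every heart. A call on the adjusted p with no fold gave the same 4 genes and is not counted here. Over the other 19 alternatives Sfrp2 was called in 14, Fzd8 in 9 and Fzd2 in 6, and Wnt5b in 8 of the 18 in which it was tested. Their log2FC stayed positive in each, at 0.70 to 1.28 for Sfrp2, 0.57 to 1.00 for Fzd8, 0.18 to 0.86 for Fzd2 and 0.43 to 1.68 for Wnt5b.

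**Figure D5:**
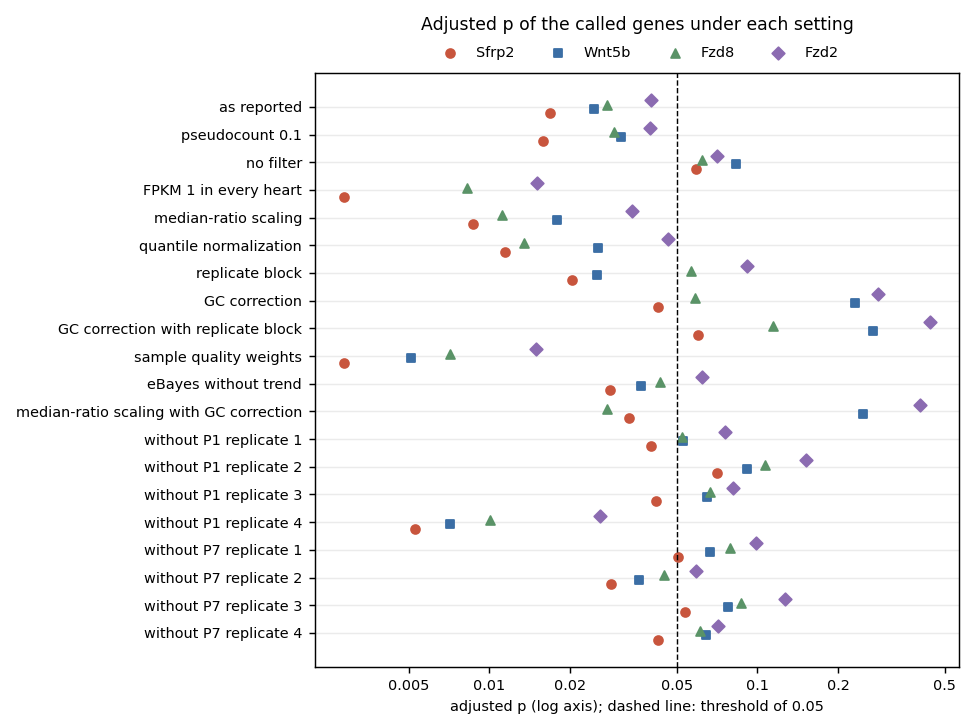
Adjusted p (log axis) of Sfrp2, Wnt5b, Fzd8 and Fzd2 from limma in the fit reported and in each alternative, with the threshold of 0.05 marked. Sfrp2 ranges from 0.00287 to 0.0705 and Fzd2 from 0.0150 to 0.441.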

How the data were processed

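Whole hearts of 8 mice, 4 at P1 and 4 at P7, were measured by paired-end sequencing of ribodepleted total RNA. Per the labels, the genome build was GRCm38, and the authors' provider aligned the reads and summed them over Ensembl features. The aligner, the counter and the use of strand are not given in the sources used here. The deposited values are FPKM of each locus in each heart, with no counts, and replicates were not pooled. The files join overlapping genes into spans, so gene positions, exons and GC content come from GENCODE M21.

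Groups were taken from the age in the labels, and p-values set the difference between stages against the spread between animals of a stage. The labels give no batch, so a batch difference between the stages cannot be told apart from age. Loci that reached FPKM 1 in some heart (43172 of 80155) were tested with limma 3.58.1 in R 4.3.3 on log2(FPKM + 1), with lmFit and eBayes (trend). P-values were adjusted over all loci tested (Benjamini-Hochberg). A DEG had to pass an adjusted p of 0.05 and differ at least 1.5-fold in mean FPKM. The calculation was tested on simulated data. Depth was estimated from the steps between low FPKM of loci of 1500 to 4000 bases with no annotation, at 13.3 to 20.8 fragments per FPKM and kilobase, which bears on counting error only. GC correction subtracted from each heart a lowess curve (span 0.3) of its deviation from the locus mean against GC content. GC content was at hand for 85.1% of annotated loci tested and 93.4% of those called higher.

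The alternatives were a pseudocount of 0.1, other filters, median-ratio and quantile scaling, the replicate number as a block, GC correction, eBayes without trend, sample weights, a call on the adjusted p with no fold and leaving out each heart. Median-ratio scaling with GC correction was added after seeing the data. The genes and all lists were chosen with earlier results of these data known. Every called gene and the most abundant genes of each role were described in full, and from each other list the called genes and the most abundant uncalled ones. Promoter windows came from a RefSeq table, which was searched with Python 3.11.15.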

Additional observations from a re-analysis of the deposited data

Results flagged for a closer look

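In each group of 4 hearts the gap of the highest or lowest heart to its neighbour was set against the range of the group and compared with Dixon's critical value. Of 72 groups of values tested, 2 passed it, where chance gives about 3.6, and both were in P1 replicate 4 and share the values of Lrp6. Lrp6 measured 21.4 FPKM in that heart and 14.5 to 15.1 FPKM in the other P1 hearts, with a gap of 0.915 of the range. The summed FPKM of Lrp5 and Lrp6 was 29.1 in that heart and 17.5 to 18.5 in the others, with a gap of 0.912. P1 replicate 4 also had a median-ratio size factor of 1.16 against 0.801 to 0.952 in the other P1 hearts, and the part of this in the Lrp6 value was not tested.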

How the results depend on the processing

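Of 540 log2FC of single genes under an alternative, 473 kept their direction and their side of the threshold, 38 of 4 genes lost the call, 10 of 4 other genes gained one and 19 of 6 genes changed sign. The number of the 49 genes called higher, reported as 4, was 0 with no filter, 2 with the replicate block, 1 with GC correction, 0 with GC correction and replicate block, 7 with sample weights and 2 with median-ratio scaling and GC correction. Called lower, reported as 0, were 1 with no filter (Wnt1, listed at 0 in P7) and 1 with median-ratio scaling and GC correction (Wnt2b). With FPKM 1 in every heart, Sfrp2, Fzd1, Fzd2, Fzd8, Lrp5 and Fzd7 were called higher, and Wnt5b did not pass that filter. With eBayes without trend, Sfrp2, Fzd8 and Wnt5b were called higher. Leaving out 1 heart gave 0 to 7 higher and 0 lower.

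Annotated loci called higher numbered 192 with no filter, 2424 with FPKM 1 in every heart, 373 with GC correction, 314 with GC correction and replicate block, 2773 with sample weights, 905 with eBayes without trend, 499 with median-ratio scaling and GC correction, and 156 to 2720 without 1 heart (lowest without P1 replicate 2, highest without P1 replicate 4). Called lower were 39, 149, 27, 38, 178, 36, 237 and 11 to 115 in the same order, and 621 with median-ratio scaling and 246 with quantile normalization. The median log2FC of the genes tested was 0.11 with no filter, 0.26 with median-ratio scaling, 0.19 with quantile normalization, 0.17 with median-ratio scaling and GC correction, and 0.39 to 0.56 without 1 heart. Of the other pathway genes, 2 were called higher with no filter, 25 with FPKM 1 in every heart, 8 with the replicate block, 0 with GC correction, 1 with GC correction and replicate block, 29 with sample weights, 8 with eBayes without trend, 3 with median-ratio scaling and GC correction, and 0 to 28 without 1 heart. With median-ratio scaling and with quantile normalization, Bmp4, Cby1, Dact1, Gpc6, Kremen1 and Scrib joined those called higher, while Gsk3a, Ppp2r5b and Tle1 left them. The 1 called lower was lost (0) with the replicate block, with GC correction, with both and with eBayes without trend, and 0 to 1 were called without 1 heart.

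The log2FC changed sign to -0.14, -0.12 and -0.15 for Ctnnb1 and to -0.22, -0.25 and -0.067 for Lrp6 with median-ratio scaling, quantile normalization, and median-ratio scaling with GC correction. For Frzb it became -0.027 with median-ratio scaling and -0.035 with GC correction added. For Fzd3 it became 0.13 and for Wnt16 0.11 with GC correction, with and without the replicate block. With quantile normalization it became 0.014 for Wnt11 and 0.032 for Wnt16. Without 1 heart, Lrp6 ranged over -0.067 to 0.14. The cause of these changes was not tested.

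Same-numbered hearts of both stages deviated from their group means with correlations of -0.276 to 0.218. These stand without the values of other pairs of hearts, so they cannot decide whether the replicate numbers pair the animals. With the block, 970 annotated loci were higher and 82 lower, and Sfrp2 and Wnt5b were called. At an estimated 13.3 to 20.8 fragments per FPKM and kilobase, levels under FPKM 1 rest on few fragments, and the 20 of the 49 genes below it were tested with no filter alone.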

Other observations

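The P7 hearts differed among themselves in several genes of the pathway, which were picked after their values were seen. P7 replicates 1 and 2 stood above replicates 3 and 4 for Tcf7l1 (7.04, 8.71, 2.22 and 2.52 FPKM), for the antagonist Sfrp5 (0.862, 0.752, 0.246 and 0.225 FPKM), for Notum, an enzyme that removes the lipid of Wnt proteins (0.390, 0.642, 0.173 and 0.0880 FPKM), and for the beta-catenin partner Bcl9l (16, 15.8, 11.0 and 10.6 FPKM). For Sfrp5 and Notum the lower pair lay at or near the P1 hearts, at 0.152 to 0.287 and 0.0552 to 0.172 FPKM. For Bcl9l all 4 P7 hearts lay above the P1 hearts (7.28 to 9.73 FPKM). Sfrp5 and Notum lay under FPKM 1 in every heart, Sfrp5 on an estimated 4.00 to 23.9 fragments per heart. How many of all loci show the same order of P7 hearts was not worked out. These are single values of 4 animals, and no test was made on them.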
